A study of Mus musculus with 8 samples.

Results

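The genes described here are the clustered histone genes, the members of the Hist1, Hist2, Hist3 and Hist4 gene clusters of the mouse, in muscle stem cells with and without Cox10. They were chosen by symbol alone, as every row whose symbol starts with Hist, a cluster number from 1 to 4 and the letter h. This gave 44 of the 17847 genes in the deposited table: 6 for the linker histone H1, 4 for H2A, 13 for H2B, 10 for H3 and 11 for H4. Of these, 38 belong to the Hist1 cluster and 4 to the Hist2 cluster, with 1 each from Hist3 and Hist4. The GENCODE M21 annotation has 67 protein-coding genes with such symbols. The other 23, of which 14 are H2A genes, have no row in the deposited table, so their levels were not analysed.

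RNA was measured in 8 libraries of C57Bl/6 mice, 4 wild-type and 4 Cox10-/-, numbered as replicates 1 to 4 in each genotype. Cox10 encodes an enzyme of haem A synthesis, which respiratory complex IV needs. Deletion was aimed at the muscle stem cells of adults: the Cox10-/- animals carried floxed Cox10 together with Cre(ERT2), the form of Cre that tamoxifen switches on, under Pax7. A single intraperitoneal dose of tamoxifen (200 mg/kg) is given in the labels of all 8 samples, wild-type included, and cells were collected on day 2. Whether the wild-type animals carried Cre or the floxed allele, and the age of the animals, was not stated. Living cells with CD34 but without Sca1, CD45 or CD31 on their surface were sorted from digested skeletal muscle. The libraries came from total RNA, and no selection for poly(A) tails is stated. No label says that each replicate came from its own animal, so p-values measure the spread between these samples, which may be technical.

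Histones package DNA. Pairs of H2A and H2B and of H3 and H4 form the nucleosome core, and H1 binds the DNA that links nucleosomes. The clustered genes are the classical replication-dependent histone genes. They lack introns, and most of their mRNAs end not in a poly(A) tail but in a conserved stem-loop, which stem-loop binding protein (Slbp) recognises. Their transcripts are made in bulk in S phase, when new DNA has to be packaged, and are removed when replication ends. Muscle stem cells of undisturbed muscle are mostly quiescent, so they make few of these transcripts unless they enter the cell cycle.

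The stem-loop is shown for 6 members because it is the feature that sets these mRNAs apart, and because these members include both that passed the test. In each line the 16 bases of the stem-loop are in capitals, with 5 bases on each side, read from the GENCODE M21 transcripts (GRCm38). Counted from the first base after the stop codon, the stem-loop began at base 25 in Hist1h1c, 41 in Hist1h1e and 33 in Hist1h3g. It began at base 39 in Hist2h4, 34 in Hist1h4c and 55 in Hist4h4.
Hist1h1c: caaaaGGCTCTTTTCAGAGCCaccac
Hist1h1e: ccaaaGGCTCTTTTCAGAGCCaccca
Hist1h3g: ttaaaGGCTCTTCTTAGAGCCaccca
Hist2h4: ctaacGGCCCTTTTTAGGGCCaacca
Hist1h4c: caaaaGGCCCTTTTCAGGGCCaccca
Hist4h4: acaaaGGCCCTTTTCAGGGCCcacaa

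The search asked for GG and any 4 bases, a T and any 3 bases, and then the reverse complement of the first 6, on the sense strand after the stop codon. It found a stem-loop in 33 of the 44 members (75.0%), starting at base 22 to base 55 after the stop codon. Among 21810 other protein-coding genes, 392 (1.80%) held such letters anywhere in the longest transcript, and 39 (0.179%) in its last 300 bases. There were 8 versions of the letters, the most frequent being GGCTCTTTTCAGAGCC in 15 members. All 23 stem-loops of H1, H2A, H2B and H3 genes started with GGCTC, whereas the 10 of H4 genes started with GGCCC in 8 members and GGTCC in 2. Of the 11 members with no match, 6 have a transcript model that ends at the stop codon, so no match says only that the letters are not in the model.

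Promoters are shown for 3 members, since the H1 genes Hist1h1c and Hist1h1e share their CCAAT and H1 boxes but only Hist1h1c passed the test. The H2A gene Hist2h2ac is shown because it carries the element of the H2A-H2B type. The sequences run from 250 bases before to 50 bases after the start of transcription, from RefSeq on GRCm38.p6. They lie at chr13:23738557-23738856 on the plus strand for Hist1h1c, chr13:23622509-23622808 on the minus strand for Hist1h1e and chr3:96220831-96221130 on the minus strand for Hist2h2ac. Capitals mark matches, on either strand, to 4 motifs. These were the pentamer CCAAT, and the box that binds the general factor TBP, spelled TATAAA. The core of the octamer of H2B promoters is ATTTGCA, and the H1 box of linker histone promoters is AAACACA.
Hist1h1c: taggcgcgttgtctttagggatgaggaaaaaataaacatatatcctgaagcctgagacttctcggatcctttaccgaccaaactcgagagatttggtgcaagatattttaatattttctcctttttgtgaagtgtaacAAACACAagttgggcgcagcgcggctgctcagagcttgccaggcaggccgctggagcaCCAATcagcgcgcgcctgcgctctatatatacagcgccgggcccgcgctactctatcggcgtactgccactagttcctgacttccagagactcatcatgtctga
Hist1h1e: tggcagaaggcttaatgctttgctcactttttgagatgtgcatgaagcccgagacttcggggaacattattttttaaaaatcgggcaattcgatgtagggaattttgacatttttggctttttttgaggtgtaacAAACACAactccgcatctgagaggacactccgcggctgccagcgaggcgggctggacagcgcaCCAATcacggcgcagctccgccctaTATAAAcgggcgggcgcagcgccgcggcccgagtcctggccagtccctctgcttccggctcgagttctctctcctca
Hist2h2ac: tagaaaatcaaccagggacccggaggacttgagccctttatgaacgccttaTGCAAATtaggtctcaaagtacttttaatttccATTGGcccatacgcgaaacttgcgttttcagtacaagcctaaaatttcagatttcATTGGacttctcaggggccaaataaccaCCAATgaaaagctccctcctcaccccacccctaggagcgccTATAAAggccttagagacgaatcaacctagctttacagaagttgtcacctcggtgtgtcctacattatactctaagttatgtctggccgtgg

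A promoter was found for 39 of the 44 members. CCAAT stood in 32 of them (82.1%), against 37.4% of all 32851 promoters in the same RefSeq table. It was in every H1, H2A, H2B and H3 promoter examined and in 3 of the 10 H4 promoters. TATAAA stood in 22 (56.4%, against 13.6% of all), with none in Hist1h1c and 1 in Hist1h1e. ATTTGCA stood in 8 (20.5%, against 4.0%), in 3 of 4 H2A and 5 of 11 H2B promoters and in none of the H1, H3 and H4 promoters. AAACACA, a motif added after the sequences had been seen, was in 5 of 6 H1 promoters, 1 of H2A and 1 of H2B, 17.9% of the members against 7.2% of all promoters. The letters describe the sequences, and no binding was measured.

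Library depth, recovered from the steps of the low values, ranged from 1684917 to 4624784 reads in genes, with wild-type replicate 2 and Cox10-/- replicate 4 the shallowest. Cox10 itself stood at log2 CPM 3.98, 3.42, 4.12 and 3.69 in wild-type replicates 1 to 4 and at 3.51, 3.69, 3.49 and 2.05 in Cox10-/- replicates 1 to 4. The difference of -0.62 ± 0.34 (SE) on the log2 scale did not pass limma's test (adjusted p = 0.246). Counts were made over the whole gene and the sources used here do not say which part is floxed, so these values do not check the genotype labels. Among markers of muscle stem cells, the summed level of 10 genes was 2120 to 2730 CPM in wild-type and 1290 to 1510 CPM in Cox10-/- libraries. Of the 10, 7 were called lower, against 8.51% of all genes tested, and Vcam1, Sdc4 and Cd34 were not called.

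Values are log2 CPM, reads scaled to library size, as deposited, and every CPM of 1 or less stands at 0, called the floor below. The clustered histone genes were thinly read. In wild-type libraries they took up 0.0331% to 0.0440% of the CPM of all genes, and in Cox10-/- libraries 0.0421% to 0.0633%. Whether the libraries favoured poly(A) tails is not stated, so shares of reads need not be shares of transcripts in the cells. The reads behind all 44 members together numbered 680 in wild-type replicate 2, the fewest, and 2035 in wild-type replicate 3, the most. A total of 28 members stood above the floor in all 8 libraries and 16 were at the floor in at least 1. Of 176 values per genotype, 21 were at the floor in wild-type and 7 in Cox10-/-. Most of those in wild-type lay in replicate 2, the shallowest wild-type library. Over all genes, 1035 stood at the floor in that library, the most of any. The 2 counts by genotype therefore depend on depth in 1 library. A member with libraries at the floor has a fold change measured from there.

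The members stood higher in Cox10-/- libraries by a small amount in nearly every gene, but only 2 passed the test. limma's moderated test on all 17801 genes with a value above 0 in at least 4 libraries, with Benjamini-Hochberg adjustment and a threshold of 0.05, called Hist1h1c and Hist2h4 higher. That is 2 of 44 members (4.55%), against 7.58% of all genes tested called higher, so the share of members called was not above the background. No member was called lower (0 at an unadjusted p under 0.05, and 0 with limma voom on recovered reads), against 8.51% of all genes. Over all genes 16.1% were called. Of these 47.1% were higher, or 58.4% with the libraries centred on their medians.

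Counts by direction and size stood further from the background. The log2 fold change was above 0 in 41 of 44 members (93.2%, against 45.0% of all genes), the exceptions being Hist1h1e, Hist1h4c and Hist1h4h. It was at least 0.5 in 29 members (65.9%, against 14.4%) and at least 1 in 6 (13.6%, against 4.36%). An unadjusted p under 0.05 with a higher level in Cox10-/- was reached by 17 members (38.6%, against 14.1%). This number was 7 to 21 when 1 library was left out, the lowest without wild-type replicate 2 or Cox10-/- replicate 3 (7 in both fits). It was 5 (11.4% of members) without the 2 shallowest libraries. The share of all genes was not counted in these refits, and 14.1% is that of the fit to all 8 libraries. Whether the excess over the background held in each refit is therefore not known. In 5 members all 4 Cox10-/- libraries lay above all 4 wild-type libraries (11.4%), a share near the background of 9.30%. They were Hist1h1c, Hist2h4, Hist2h2be, Hist1h3a and Hist2h2ac. In none did all wild-type libraries lie above, against 11.8% of all genes. Members share sequence and possibly reads, so these counts are descriptions and not tests.

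The median log2 fold change of the 44 members was 0.67, against -0.05 over all genes tested. By type, the medians were 0.56 for H1, 0.88 for H2A, 0.63 for H2B, 0.85 for H3 and 0.41 for H4. Between replicates 1 and 2 of each genotype the median over all members was 0.65, and between replicates 3 and 4 it was 0.66. The 28 members above the floor in every library had a median of 0.64 and the other 16 a median of 0.75. The 33 members with a stem-loop in their transcript model had a median of 0.69 and the 11 without one of 0.63.

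**Figure D1:**
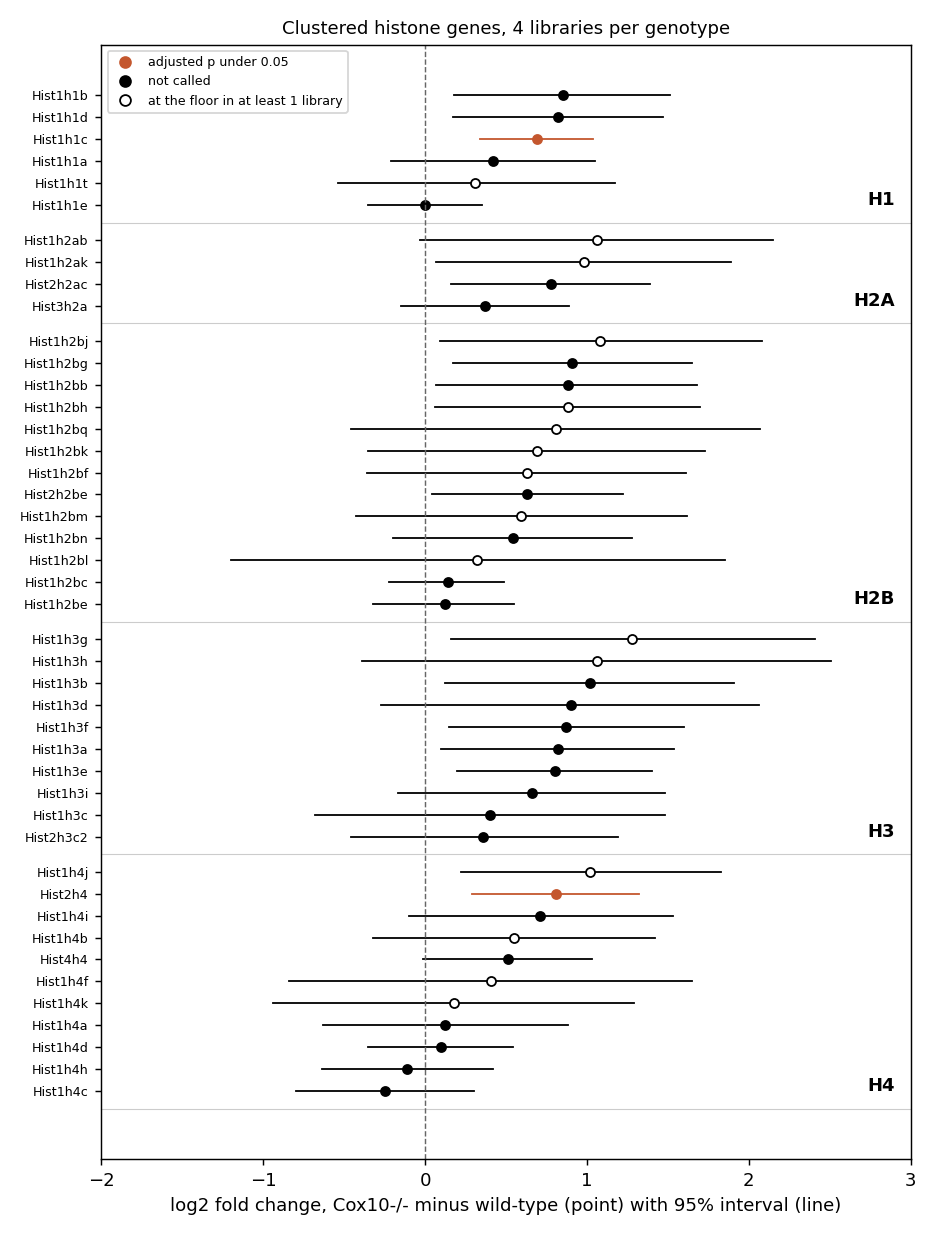
Log2 fold change of each of the 44 members, Cox10-/- minus wild-type (horizontal axis; points), with the 95% interval of the fit (lines), grouped by histone type; coloured points passed limma's test and open points stood at the floor in at least 1 library. A total of 41 points lie above 0, but 2 (Hist1h1c and Hist2h4) passed the test.

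Among the linker histones, Hist1h1c rose. In wild-type replicates 1 to 4 it stood at log2 CPM 5.89, 5.91, 6.01 and 6.10, and in Cox10-/- replicates 1 to 4 at 6.31, 6.40, 6.85 and 7.12. The groups did not overlap, and replicates 3 and 4 were the highest of the Cox10-/- libraries. The means were 5.98 ± 0.10 and 6.67 ± 0.38 (SD, n = 4), a log2 fold change of 0.69 ± 0.16 (SE; 95% interval 0.34 to 1.04; 1.62-fold; limma adjusted p = 0.0128), resting on 129 to 367 reads per library. Hist1h1c encodes a somatic H1 that is also made outside S phase, and some of its transcripts are known to carry poly(A) tails. The call held in each of the 8 fits that left out 1 library (adjusted p of 0.00593 to 0.0469) but not with 2 means per genotype, of replicates 1 and 2 and of 3 and 4 (adjusted p = 0.087), nor without the trend of variance on level (adjusted p = 0.0508).

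Hist1h1e, another somatic H1 with a similar level, had the same mean in both genotypes. Its values were 5.80, 5.75, 5.96 and 5.85 in wild-type and 5.44, 5.63, 6.06 and 6.22 in Cox10-/- libraries. The Cox10-/- libraries lay on both sides of the wild-type ones, replicates 1 and 2 below and replicates 3 and 4 above. That mean was 5.84, with an SD of 0.09 in wild-type and 0.36 in Cox10-/- (n = 4), and the 95% interval of the difference ran from -0.35 to 0.35 (limma adjusted p = 0.994).

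Within each library, Hist1h1c exceeded Hist1h1e by 0.09, 0.16, 0.05 and 0.25 log2 units in wild-type replicates 1 to 4 and by 0.87, 0.77, 0.79 and 0.90 in Cox10-/- replicates 1 to 4. The gap spanned 0.05 to 0.25 in wild-type and 0.77 to 0.90 in Cox10-/- libraries, with means of 0.14 and 0.83. Among the Cox10-/- libraries its range was narrower than that of either gene, and among the wild-type libraries it was about as wide. This pair was chosen after its values were seen and the gap was not tested. Per kb of coding sequence, a scale that ignores untranslated parts, Hist1h1c had 99.1 CPM in wild-type and 160 CPM in Cox10-/- libraries, and Hist1h1e 87.2 and 87.0 CPM.

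The other somatic H1 genes, which are typical of dividing cells, gave positive values that did not pass. Hist1h1b had the largest fold change of the H1 genes, with 3.38, 3.29, 4.50 and 3.80 in wild-type and 4.37, 3.97, 4.90 and 5.12 in Cox10-/- libraries. Wild-type replicate 3 lay within the Cox10-/- range. The log2 fold change was 0.85 ± 0.31 (SE; 95% interval 0.18 to 1.51; limma adjusted p = 0.0789). The difference passed when wild-type replicate 3 (adjusted p = 0.0273) or Cox10-/- replicate 2 (0.0433) was left out. Hist1h1d differed by 0.82 ± 0.30 (limma adjusted p = 0.082) and Hist1h1a by 0.42 ± 0.29 (adjusted p = 0.353). Hist1h1t, the H1 of the testis, was at 0 to 1.82 in all libraries, near the floor.

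**Figure D2:**
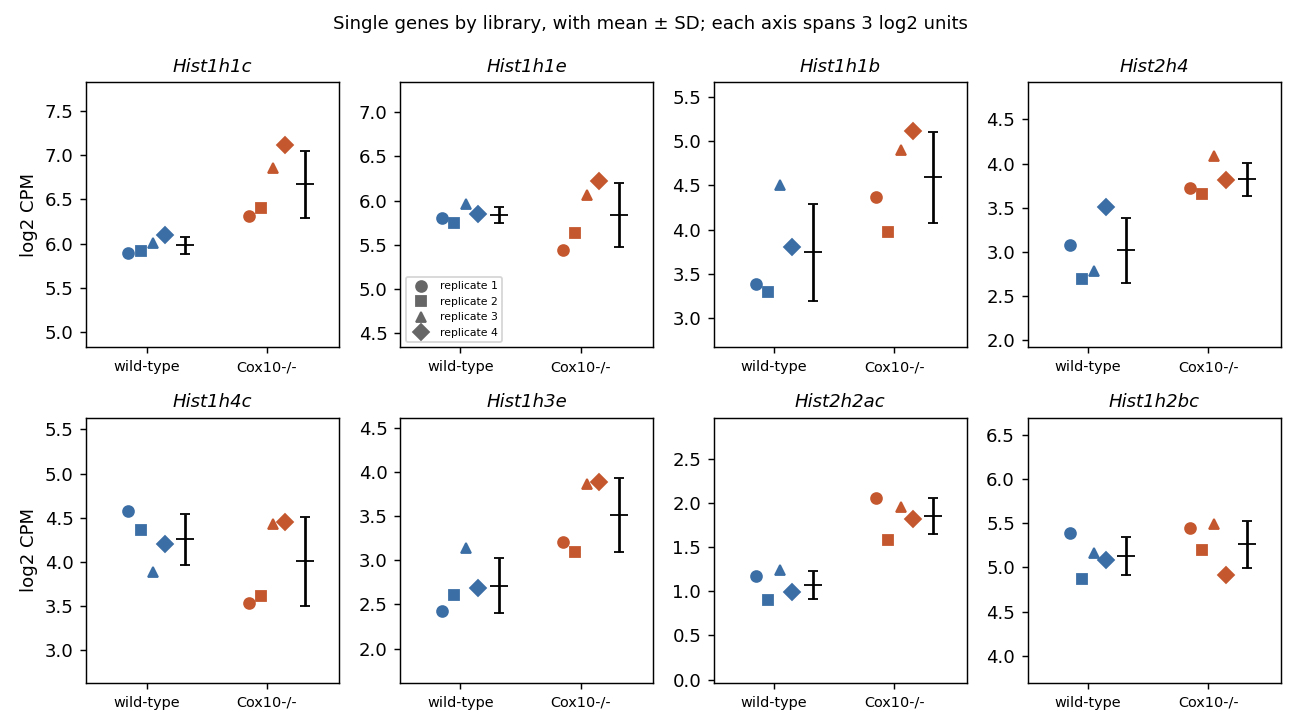
Log2 CPM (vertical axes, each spanning 3 log2 units) of 8 members in the 4 wild-type and 4 Cox10-/- libraries, with symbols for the replicate number and the mean ± SD of each genotype in black. Hist1h1c, Hist2h4 and Hist2h2ac show no overlap between genotypes. In every panel but Hist2h2ac and Hist1h2bc, Cox10-/- replicates 1 and 2 lie below Cox10-/- replicates 3 and 4.

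Of the 4 H2A genes, all had fold changes above 0 and none passed. Hist3h2a, the most highly read, had 2.93, 3.14, 2.99 and 3.45 in wild-type and 3.18, 3.88, 3.61 and 3.33 in Cox10-/- libraries. The groups overlapped, and the log2 fold change was 0.37 ± 0.24 (SE; limma adjusted p = 0.315). Hist2h2ac, an H2A gene of the Hist2 cluster, had 1.17, 0.90, 1.24 and 0.99 in wild-type and 2.06, 1.58, 1.95 and 1.82 in Cox10-/- libraries. All 4 Cox10-/- libraries were above all 4 wild-type ones, but on 4 to 18 reads per library, and the log2 fold change of 0.78 ± 0.28 did not pass (limma adjusted p = 0.0818). The remaining members, Hist1h2ab (1.06) and Hist1h2ak (0.98), were at the floor in at least 1 library. Hist3h2a is the 1 H2A gene whose mean log2 CPM reached 2, so the H2A median of 0.88 comes mostly from low values.

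The 13 H2B genes had log2 fold changes of 0.12 to 1.08, none of which passed. Hist1h2bc, known to give polyadenylated transcripts and the most highly read, had 5.39, 4.87, 5.16 and 5.08 in wild-type and 5.45, 5.20, 5.49 and 4.91 in Cox10-/- libraries. The groups overlapped, with a difference of 0.14 ± 0.16 (SE; 95% interval -0.22 to 0.49; limma adjusted p = 0.609). Hist1h2be was nearly as flat, at 3.67, 3.48, 3.74 and 3.90 against 3.54, 3.78, 4.12 and 3.82 (0.12 ± 0.20; limma adjusted p = 0.734). Thus the 2 H2B genes with the most reads had the smallest differences of the type.

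Hist1h2bg showed the largest difference among H2B genes above the floor in all libraries. It had 1.50, 2.48, 2.74 and 1.58 in wild-type and 2.70, 2.74, 3.36 and 3.15 in Cox10-/- libraries, where wild-type replicate 3 reached the lower Cox10-/- values. The log2 fold change was 0.91 ± 0.34 (SE; limma adjusted p = 0.0878). Hist2h2be, which also gives polyadenylated transcripts, had 2.50, 2.60, 1.78 and 2.63 against 2.98, 3.16, 2.95 and 2.94. The groups did not overlap, yet the difference of 0.63 ± 0.27 did not pass (limma adjusted p = 0.134), with wild-type replicate 3 far below the other wild-type libraries.

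The 10 H3 genes had log2 fold changes of 0.36 to 1.28. Hist1h3e, the most highly read, had 2.42, 2.60, 3.14 and 2.69 in wild-type and 3.21, 3.09, 3.86 and 3.88 in Cox10-/- libraries. Wild-type replicate 3 exceeded Cox10-/- replicate 2 and no other value crossed. The difference was 0.80 ± 0.28 (SE; 95% interval 0.20 to 1.40), the smallest adjusted p of the type (limma adjusted p = 0.0681). Hist1h3b differed most among H3 genes above the floor in all libraries, with 1.17, 1.48, 2.87 and 2.45 against 2.80, 2.34, 3.41 and 3.49 (1.02 ± 0.41; limma adjusted p = 0.114). Both genotypes were spread widely, and wild-type replicates 3 and 4 stood among the Cox10-/- values. Hist2h3c2 had 1.34, 1.22, 0.78 and 0.31 against 0.89, 1.34, 2.06 and 0.82, with partial overlap (0.36 ± 0.38; limma adjusted p = 0.552).

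Among the 11 H4 genes, Hist2h4 rose and the most highly read members did not pass. Hist2h4 had 3.08, 2.70, 2.78 and 3.51 in wild-type and 3.72, 3.66, 4.09 and 3.82 in Cox10-/- libraries. The groups did not overlap, and wild-type replicate 4 came closest to the Cox10-/- range. The means were 3.02 ± 0.37 and 3.82 ± 0.19 (SD, n = 4), a log2 fold change of 0.81 ± 0.24 (SE; 95% interval 0.29 to 1.32; 1.75-fold; limma adjusted p = 0.0383) on 14 to 57 reads per library. The call was lost in 7 of the 8 fits that left out 1 library, held only without wild-type replicate 4 (adjusted p = 0.0236), and was furthest from the threshold without Cox10-/- replicate 3 (adjusted p = 0.119). It was also lost with 2 means per genotype (adjusted p = 0.212) and without the 2 shallowest libraries (0.0828).

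Hist1h4d, the most highly read H4 gene, had 4.51, 4.70, 4.32 and 4.22 in wild-type and 4.32, 4.13, 4.70 and 4.99 in Cox10-/- libraries, with overlap (0.10 ± 0.21; limma adjusted p = 0.786). Hist1h4c had 4.58, 4.36, 3.89 and 4.20 against 3.54, 3.61, 4.43 and 4.45. Its Cox10-/- libraries lay below the wild-type range in replicates 1 and 2 and within it in replicates 3 and 4, a difference of -0.90 between replicates 1 and 2 and of 0.39 between replicates 3 and 4. Over all libraries the difference was -0.25 ± 0.25 (SE; limma adjusted p = 0.542). Hist4h4, which gives polyadenylated transcripts, had 3.30, 2.70, 3.37 and 3.63 against 3.51, 3.88, 3.89 and 3.76 (0.51 ± 0.24; limma adjusted p = 0.17). The H4 median of 0.41 was 0.04 without Cox10-/- replicate 3 and 0.12 with only genes of a mean log2 CPM of at least 2.

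A pair of neighbours was chosen after its values were seen. Hist1h2bl and Hist1h3h start 1445 bases apart on chromosome 13, on opposite strands (RefSeq, GRCm38.p6). Hist1h2bl had 0, 0, 1.37 and 1.90 in wild-type and 3.32, 0, 0 and 1.24 in Cox10-/- libraries, and Hist1h3h had 0, 0, 0.37 and 0.99 against 3.82, 0, 0.95 and 0.82. Both stood far above all other libraries in Cox10-/- replicate 1, on 43 and 61 reads. Without both genes the summed level of the other 42 members was 433 CPM in that library, and 457 CPM with them.

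Summed over the members, with the floor counted as 1 CPM, the level was 362, 330, 438 and 396 CPM in wild-type replicates 1 to 4 and 457, 419, 618 and 630 CPM in Cox10-/- replicates 1 to 4. Wild-type replicate 3 exceeded Cox10-/- replicate 2, and Cox10-/- replicates 3 and 4 stood well above the rest. The means were 382 ± 46.0 and 531 ± 109 CPM (SD, n = 4), a ratio of 1.39, which was 1.26 between replicates 1 and 2 and 1.50 between replicates 3 and 4. In these bulk sums, more cells that hold these transcripts and more transcripts per cell cannot be told apart.

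By type, the mean sums went from 169 ± 24.4 to 243 ± 68.9 CPM for H1, from 13.7 ± 1.40 to 21.5 ± 2.01 CPM for H2A and from 80.7 ± 11.0 to 106 ± 14.2 CPM for H2B (SD, n = 4). They went from 36.4 ± 11.6 to 63.6 ± 17.3 CPM for H3 and from 81.9 ± 4.41 to 97.4 ± 16.8 CPM for H4. The ratio was thus highest for H3 (1.75) and lowest for H4 (1.19). H2A was the type whose sums did not overlap, at 12.7 to 15.6 CPM in wild-type and 19.7 to 23.5 CPM in Cox10-/- libraries. H1 transcripts made up 40.3% to 51.0% of the summed CPM of the members in each library, and H2A transcripts 3.19% to 4.74%, from 4 genes with a row in the table. The sums have no test, as the types share libraries and possibly reads.

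**Figure D3:**
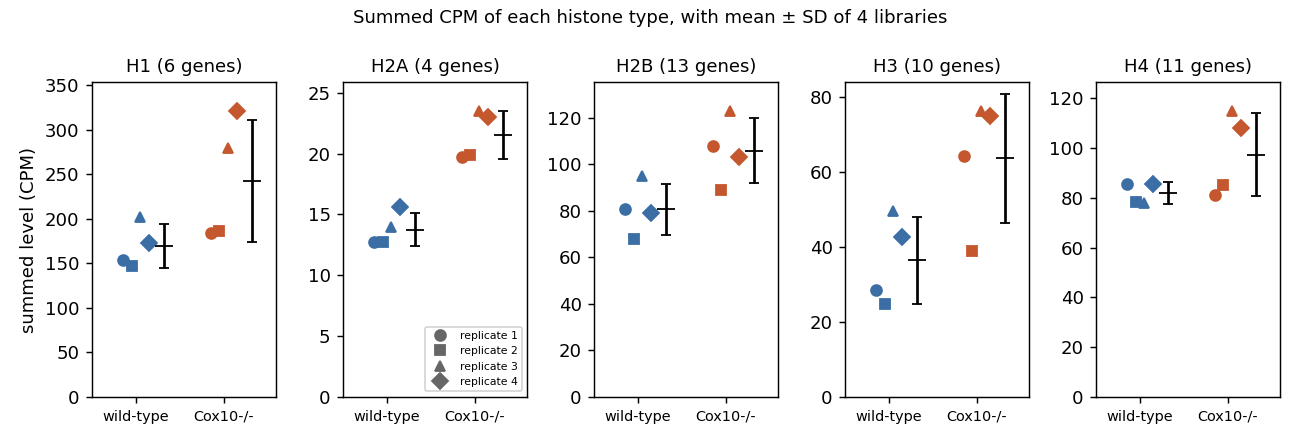
Summed level (vertical axes, CPM, from 0) of the members of each histone type in the 4 wild-type and 4 Cox10-/- libraries, with symbols for the replicate number and the mean ± SD in black; values at the floor counted as 1 CPM. The genotypes do not overlap for H2A, and overlap for H1, H2B, H3 and H4.

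Sequence that these genes share with other transcripts limits what a row can mean. Of all 50-base windows in the coding sequence of a member, a median of 28.0% occurred in no other GENCODE M21 transcript (range 0.0% to 100%). The median was 89.0% for H1, 37.2% for H2A, 17.3% for H2B, 20.8% for H3 and 31.5% for H4. For the 23 coding genes of the clusters without a row it was 5.8%. Of the members named above, Hist1h1c had 78.0% of its windows to itself, Hist1h1e 74.5%, Hist2h4 93.8%, Hist4h4 and Hist2h2be 100%, but Hist1h2bc 2.4% and Hist3h2a 0.0%. How reads with several matches were counted was not stated, so members with few windows of their own are uncertain. The degree is not known, since untranslated parts, which can also hold reads, were not searched. A transcript of another symbol at the same locus also counted as a match. The 11 members with at least 50% of windows of their own had a median log2 fold change of 0.51 and the other 33 of 0.71.

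Of 33 genes tested that make and process histone mRNA, 1 was called higher and 3 lower, with a median log2 fold change of -0.10. Here and in the lists that follow, the shares over all genes are 7.58% called higher and 8.51% lower. Slbp, the stem-loop binding protein, had log2 CPM of 5.61, 5.51, 5.59 and 5.37 in wild-type and 5.80, 5.82, 5.80 and 5.52 in Cox10-/- libraries, with 1 Cox10-/- value inside the wild-type range (0.22 ± 0.12; limma adjusted p = 0.233). Npat, the coactivator of these promoters, differed by 0.09 ± 0.10 (limma adjusted p = 0.624). Ell, an elongation factor of RNA polymerase II, rose by 0.87 ± 0.10 log2 units (limma adjusted p = 1.72e-04). Ice2, its partner in the little elongation complex, fell by 0.99 ± 0.19 (limma adjusted p = 0.00442), Cstf2t, a cleavage factor, by 0.48 ± 0.10 (0.0088), and Coil, the scaffold of Cajal bodies, by 0.73 ± 0.23 (0.0467). The call of Coil was lost in 7 of 8 fits without 1 library, with an adjusted p of up to 0.127 without wild-type replicate 3. Of 27 histone chaperones and importers, none was called higher (2 at an unadjusted p under 0.05) and 2 lower, with a median of -0.10. These were the importin Ipo4 (-0.63 ± 0.13; limma adjusted p = 0.00631) and Ssrp1 of the FACT complex (-0.28 ± 0.09; 0.0457), whose call was lost in all 8 fits without 1 library.

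Histone genes outside the clusters encode replacement variants and, unlike the clustered genes, mostly give polyadenylated mRNA. Of 14 tested, 2 were called higher and 1 lower, with a median of 0.15. Cenpa, the H3 variant of centromeres, rose by 1.23 ± 0.33 log2 units (limma adjusted p = 0.0233) and H1fx, a linker histone, by 0.96 ± 0.29 (0.041), while H2afy3 fell by 1.25 ± 0.35 (0.0287). With 1 library left out, these calls failed in 4, 7 and 6 of 8 fits. H2afz, made throughout the cell cycle, differed by 0.14 ± 0.11 (limma adjusted p = 0.443) and H2afx, the variant phosphorylated at DNA breaks, by 0.63 ± 0.24 (adjusted p = 0.0955).

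S phase and mitosis genes gave different counts. Of 35 S phase genes, 4 were called higher and 3 lower, with a median log2 fold change of 0.05. Pola1, a subunit of DNA polymerase alpha, fell by 0.86 ± 0.11 (limma adjusted p = 2.50e-04), Mcm2 of the replicative helicase by 1.53 ± 0.31 (0.00579) and thymidylate synthase Tyms by 1.25 ± 0.26 (0.00711), whereas Mcm7 of the same helicase rose by 0.46 ± 0.12 (0.0195; 0.0594 without wild-type replicate 1). The other S phase genes called higher were Mcm10 (1.30 ± 0.38, limma adjusted p = 0.0347), Pole (0.95 ± 0.26, 0.0278) and Rpa2 (0.69 ± 0.19, 0.0311). With 1 library left out, the calls of Mcm10, Pole and Rpa2 failed in 5, 4 and 5 of 8 fits. Of 30 mitosis genes, 13 were called higher and none lower (0 at an unadjusted p under 0.05), with a median of 1.08. Ndc80 of the kinetochore rose by 2.19 ± 0.33 (limma adjusted p = 0.00105). Nusap1 (1.18 ± 0.31; 0.0222), Cdc20 (1.20 ± 0.33; 0.0268) and Anln (0.97 ± 0.27; 0.0271) of the spindle, checkpoint and cleavage furrow also rose, but with 1 library left out these calls failed in 3, 5 and 6 of 8 fits. Over the 5 related lists, 29 genes were called, and 9 to 40 when 1 library was left out.

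The libraries took almost the same order by histone and by mitosis genes, which was noticed after the values were seen and not tested. The median log2 CPM of the 44 clustered histone genes was 1.42, 1.35, 2.28 and 1.94 in wild-type and 2.41, 2.12, 2.82 and 2.82 in Cox10-/- replicates 1 to 4. That of the 30 mitosis genes was 3.63, 2.75, 4.37 and 3.71 in wild-type and 4.79, 3.96, 5.30 and 5.09 in Cox10-/- libraries. Both medians put wild-type replicate 2 lowest, wild-type replicate 3 above Cox10-/- replicate 2, and Cox10-/- replicates 3 and 4 highest. The 14 histone genes outside the clusters took the same order as the mitosis genes. Their medians were 3.80, 3.36, 4.35 and 4.11 in wild-type and 4.53, 4.24, 4.95 and 4.84 in Cox10-/- libraries. The 35 S phase genes took another order, with 3.98, 3.75, 4.65 and 4.43 in wild-type and 4.28, 4.13, 4.29 and 3.99 in Cox10-/- libraries, and wild-type replicate 3 highest. Over all genes tested the median lay between 3.99 and 4.41. The points of each list share their libraries and depth.

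**Figure D4:**
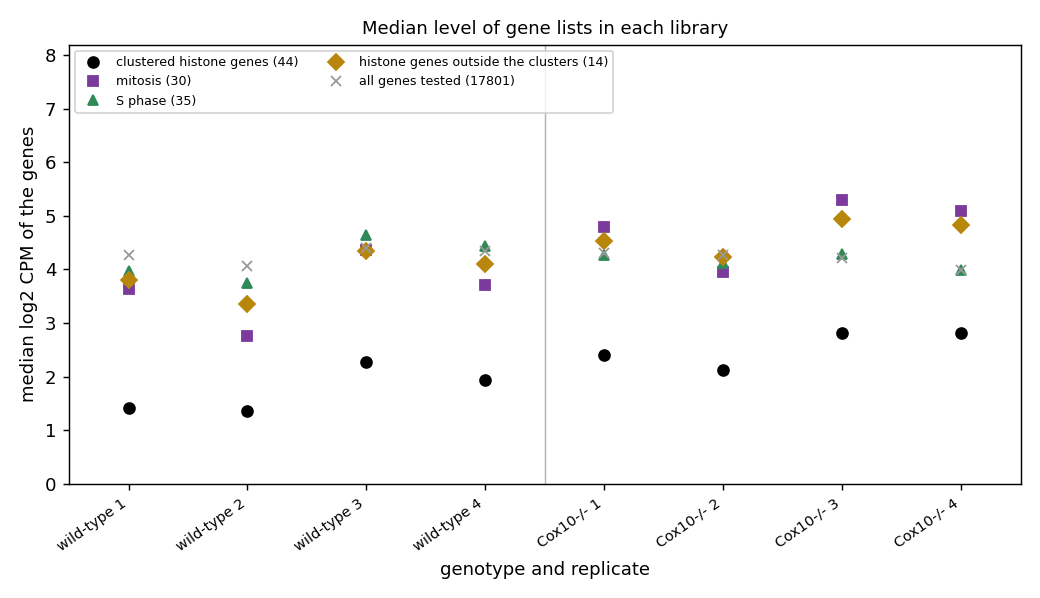
Median log2 CPM (vertical axis) in each of the 8 libraries (horizontal axis) of the 44 clustered histone genes, 30 mitosis genes, 35 S phase genes, 14 histone genes outside the clusters and all 17801 genes tested. Clustered histone genes, mitosis genes and histone genes outside the clusters are lowest in wild-type replicates 1 and 2. All of these lists are highest in Cox10-/- replicates 3 and 4, while S phase genes are highest in wild-type replicate 3.

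Markers of other cells differed between genotypes for some cell types. The summed level of 10 endothelial markers was 263 to 313 CPM in wild-type and 348 to 433 CPM in Cox10-/- libraries. Cldn5, Emcn, Egfl7 and Tie1 were at the floor in at least 1 library. Of the 10 markers, 4 were called higher and none lower (0 at an unadjusted p under 0.05). Tek and Cdh5 made up most of the sum. Their geometric means were 145 and 98.4 CPM in wild-type and 168 and 137 CPM in Cox10-/- libraries. Cdh5 was called higher (limma adjusted p = 0.0225) and Tek was not (0.171). The summed level of 6 mural cell markers was 417 to 640 and 850 to 1040 CPM, with 2 called higher and 1 lower. These were the lists whose sums did not overlap. The sums of 6 muscle fibre markers (57.3 to 145 and 88.0 to 250 CPM; 2 called higher, 0 lower) and of 6 fibroblast markers (3320 to 4480 and 3400 to 7150 CPM; 2 higher, 0 lower) overlapped. Genes of 2 surface proteins that the sort selected against were called higher. Ly6a, the gene of Sca1, had log2 CPM of 1.50, 0, 1.24 and 2.24 in wild-type and 2.75, 2.34, 3.82 and 3.41 in Cox10-/- libraries, without overlap (1.83 on the log2 scale; limma adjusted p = 0.0202; 0.0692 without Cox10-/- replicate 3). Pecam1, the gene of CD31, had 4.32, 2.70, 2.74 and 2.75 against 4.70, 4.76, 4.86 and 3.76, with wild-type replicate 1 inside the Cox10-/- range (1.39; limma adjusted p = 0.024; called in 2 of 8 fits without 1 library, and 0.0763 without Cox10-/- replicate 3). Of 10 immune markers, 4 had a row, with Ptprc, the gene of CD45, among those without, and these gave 25.6 to 33.3 and 24.2 to 44.6 CPM. The 3 Schwann cell markers gave 92.4 to 243 and 99.2 to 240 CPM and the 2 erythroid markers with a row 7.69 to 14.7 and 12.2 to 15.8 CPM, and all of these sums overlapped. Their part in the levels of the clustered histone genes was not tested.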

How the data were processed

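RNA was sequenced from 8 libraries of sorted mouse muscle stem cells, 4 wild-type and 4 Cox10-/-. Reads were processed against mm9, with DESeq2, featureCounts, HISAT2 and Trim Galore among the tools, per the submitters' processing notes. Their versions, and how strand and reads with several matches were counted, are not given in the sources read. The authors deposited log2 CPM in 1 table, as tested on the file: linear values sum to between 994342 and 995129 CPM per library, and a CPM of 1 or less stands at 0. Of 18901 rows, 1054 hold no gene. The authors' mean column was not used.

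Up to 20 reads, 100% of low values lay within 0.1 of whole reads, which gave depth. Genotypes were compared with limma 3.58.1 in R 4.3.3 (lmFit, eBayes with trend, Benjamini-Hochberg over 17801 genes). The filter of a value above 0 in at least 4 libraries removed 46 genes. The same fit was also run on simulated libraries of independent normal values, set from the fit to these data. Its outcome is not given here. A DESeq2 or edgeR test was not run, as the table holds no counts. Errors are SE of the fit or SD over 4 libraries. Sequences were searched with Python 3.11.15. The mm9 genome was not used here, so coordinates are those of GRCm38 and none were converted.

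The members and gene lists were chosen with earlier results of these data known. Named genes are called members, the highest mean and the largest and smallest fold change of each type (the latter above the floor in all libraries), members known to give polyadenylated transcripts, up to 4 called genes of each related list with the smallest p, and Slbp, Npat, H2afz and H2afx. Others are said to be chosen after their values were seen, or are given as the rest of a type or of the calls in a list. Alternatives covered filters, a pseudocount, scaling, recovered reads with limma voom, a replicate block, pairs of replicates, the variance prior, array weights and each library left out. Leaving out the 2 shallowest libraries was added after seeing the data.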

Additional observations from a re-analysis of the deposited data

Results flagged for a closer look

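Each member, and the sum of each histone type, was checked in each genotype for a library far from the other 3. Of 98 groups checked, 6 stood out, all of them single genes, and chance gives about 1 in 20. Wild-type replicate 3 was low for Hist2h2be (1.78 log2 CPM, against 2.50 to 2.63 in the others) and high for Hist1h2bq (2.11, against 0 to 0.17) and Hist1h3g (1.11, against 0 to 0.17). Wild-type replicate 4 was low for Hist1h2bn (1.16, against 1.69 to 1.76). Cox10-/- replicate 3 was low for Hist1h2bj (1.36, against 1.98 to 2.05). Cox10-/- replicate 2 was at the floor of 0.0 for Hist1h2ak (1.56 to 1.80 in the others).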

How the results depend on the processing

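Members called higher numbered 2 as reported, 4 with median centring (Hist1h1b and Hist1h3e added), 7 with a term setting replicates 1 and 2 against the others (Hist1h1d, Hist1h1b, Hist1h3e, Hist1h3b and Hist1h3g added), 0 with 2 means per genotype (9 at an unadjusted p under 0.05), 1 without the 2 shallowest libraries, and 1 to 7 when 1 library was left out: 1 in the absence of wild-type replicate 1 or 2 or Cox10-/- replicate 1, 3 or 4, then 4 without wild-type replicate 3, and 7 if Cox10-/- replicate 2 was dropped. Without the variance trend 2 members were called higher, Hist2h4 and Hist2h2ac, so Hist2h2ac was gained and Hist1h1c lost. No setting called a member lower. For the fit with 2 means, the share of all genes at an unadjusted p under 0.05 was not counted. Over all genes 2863 were called, 3838 with that term, 858 with 2 means and 1840 to 2907 with 1 library left out. The related lists gave 29 calls, 46 with the term for replicates, 7 with 2 means, 11 without a variance trend, 19 with array weights, 14 without the shallowest libraries and 9 to 40 with 1 library left out. Among genes whose mean log2 CPM was 2 or more the median was 0.37 for H2A, where 1 gene remains (Hist3h2a), and 0.12 for H4. Leaving out 1 library gave medians of 0.52 to 0.83 over all members, 0.42 to 0.69 for H1, 0.75 to 1.14 for H2A, 0.55 to 0.93 for H2B, 0.59 to 1.03 for H3 and 0.04 to 0.59 for H4. No named result with a call changed its direction under any setting. Where a value or call changed otherwise, the cause was not tested.

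Replicates were treated as sharing only a number, since the labels name no pairing and not all same-numbered libraries correlated above 0.1 in their deviations (0.045, 0.137, 0.109 and 0.13), and not every library was closest to its own number. With the replicate block 5 members were called (Hist1h1d, Hist1h1b and Hist1h3b added), and 3201 genes in all. Depth limits the low members: 16 were at the floor in at least 1 library.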
